A study of Mus musculus with 34 samples.

Results

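Mouse kidney progenitor assembloids (mKPA) were compared with kidney explants after 3 days of culture, across all genes. The comparison used 4 of the 34 bulk RNA-seq libraries of the series, 2 of D3 (day 3) assembloids and 2 of D3 explants, chosen by their sample titles. The assembloids were built from kidney progenitors expanded in culture and were kept in the stage-based medium v2, whereas the explants were E12.5 (embryonic) kidneys kept in the stage-based medium v1. Both carried the Hoxb7-venus reporter, a fluorescent protein gene under a ureteric promoter. Culture type and medium changed together, and so their effects at D3 cannot be told apart. D7 and D13 libraries of the same 2 culture types, D19 explants in v1 and in v2 (all Hoxb7-venus, 2 libraries per group) and wild-type E12.5 kidneys served as references. Whether the paired libraries of each group stem from different animals or cultures is not labelled. The 2 D3 explant libraries differ in sex-linked genes, given below, and so do not stem from the same animals. P-values measure only the spread between libraries, pooled over all groups of the series, which in other groups may be technical.

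The embryonic kidney grows by exchange between its compartments. Nephron progenitors, which express Six2, make Gdnf, which through the receptor Ret drives branching of the ureteric bud, and the bud's Wnt9b turns progenitors into nephrons through Wnt4, Lhx1 and Notch ligands. Foxd1-positive stroma surrounds both, and endothelium and macrophages populate the kidney from sources outside these progenitor pools. A culture assembled from progenitors can therefore differ from an explant both in which cells it holds and in how far they have developed.

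Values are the deposited normalized signal per gene, which has no physical unit. They are set side by side within a gene and not between genes, since they are not per transcript length. Log2 differences (assembloids minus explants, on log2 of the signal plus 0.962) are given ± SE with p-values from limma adjusted over 19264 genes. Higher and lower are said of genes with an adjusted p under 0.05 and a log2 difference of at least 1 in size. Each column has a lowest value, here called 1 step (0.05 and 0.0539 in the assembloids), which was never 0. For genes at 1 step in both assembloid libraries the fold is a lower bound, against a floor of 3 steps per library. Libraries of a bulk sample do not count cells, so fewer cells of a type and less RNA per cell cannot be told apart.

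The 4 libraries had column totals of 906729 to 973823 and an implied depth of 18069901 to 19375867 steps. The ribosomal RNA gene Rn18s-rs5 split the explants, at 2100 in replicate 1 and 25400 in replicate 2, against 28300 and 26600 in the assembloids. The v1 explants of D7 (2360 and 1780) and D13 (1290 and 2600) lay near replicate 1, and those of D19 (37800 and 37600) did not. Assembloids were at 21800 and 19200 at D7 and at 24000 and 19200 at D13. The explants also differed by sex: replicate 1 had Xist at 1240 and Ddx3y at 1 step, and replicate 2 had Xist at 1 step and Ddx3y at 82.4. Both assembloid libraries held transcripts of both sexes, with Xist at 2100 and 1780 and Ddx3y at 6.69 and 10.2. Some genes of maturing nephrons and macrophages also stood higher in explant replicate 1 than in replicate 2, such as Hnf4a at 30.4 against 8.75, and results that rest on it are given without it below.

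At D3, 1479 of 19264 genes were called (7.68%), 434 higher in the assembloids (2.25%) and 1045 lower (5.42%). Each list count at D3 below is to be set against these shares of all genes. The median log2 difference of all genes was 0.00. The 2 groups did not overlap in 1476 of the called genes. Among all 19264 genes the explants lay above the assembloids in 5906 and below them in 6447, so such separation was common. Adding 4 times the pseudocount left 767 calls, 234 higher and 533 lower. The 10 named genes with the largest rise and the 10 with the largest fall lay in a few kinds of tissue. Endothelial and macrophage genes (Pecam1, Cdh5, Stab1, Cldn5, Tie1, Robo4, Cd93, Gpnmb and Lyz2) made 9 of the 10 lowest, and genes of epithelial surfaces (Gsdmc3, Gsdmc2, Lcn2, Sprr2f, Tspan1 and Gabrp) were 6 of the 10 highest.

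**Figure D1:**
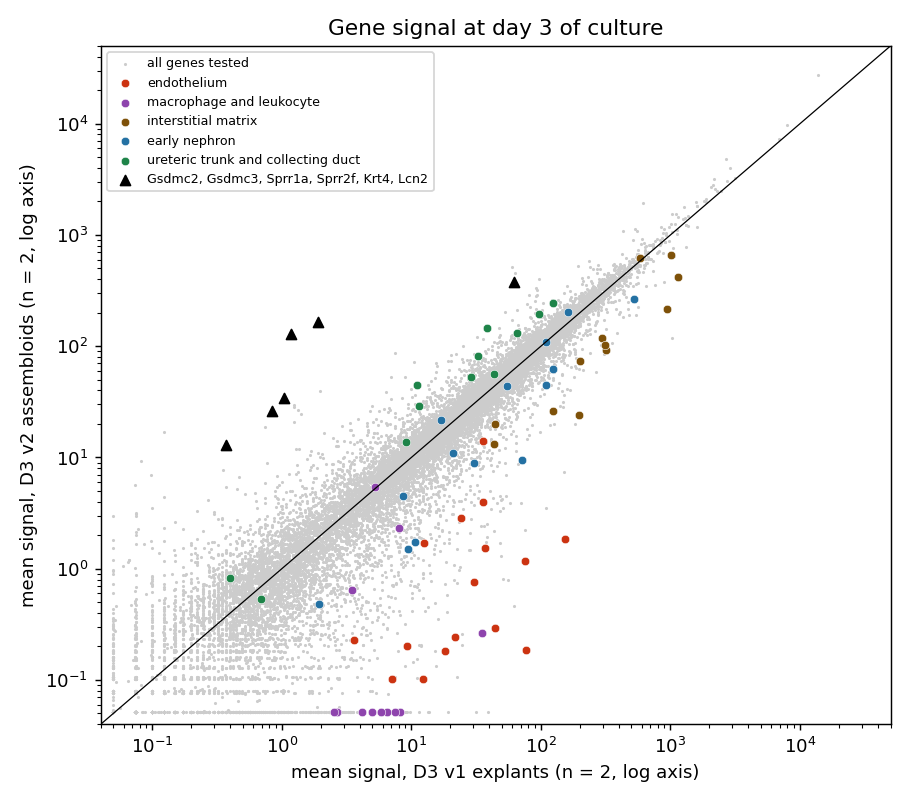
Mean signal of each tested gene in D3 explants (x, log axis) and D3 assembloids (y, log axis), 2 libraries each, with 5 gene lists coloured and the line of equality drawn. All 16 endothelial genes lie below the line, as do 12 of 13 macrophage genes, and 6 epithelial surface genes (triangles) lie above it.

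All 16 endothelial genes were lower in the assembloids, where 5.42% of all genes were, with a median log2 difference of -3.77 against 0.00 for all genes. The summed signal of the list was 556 to 643 in the explants, 28.6 to 30.4 in the assembloids and 971 to 1050 in E12.5 kidneys. Cdh5, the cadherin of endothelial junctions (ENSMUSG00000031871.10, chromosome 8, 104828257 to 104871144 on mm39), was at 167 and 141 in the explants and at 1.95 and 1.72 in the assembloids. This is a log2 difference of -5.79 ± 0.31 (adjusted p = 1.09e-11), and the explants remained near the 175 and 185 of E12.5 kidneys. Pecam1, an adhesion molecule of endothelium and blood cells, was at 85.1 and 69.6 in the explants and at 0.05 and 0.323 in the assembloids (-6.09 ± 0.33, adjusted p = 5.93e-13). Kdr, the main VEGF receptor, was at 33.4 and 41.1 in the explants and at 1.55 and 1.51 in the assembloids (-3.93 ± 0.16), although the explants had already far less than the 147 and 150 of E12.5 kidneys. Every explant value of these 3 genes lay above every assembloid value, as was so for 5906 of all 19264 genes.

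Endothelial regulators were low as well. The transcription factor Sox17 was at 6.53 and 7.77 in the explants and 0.15 and 0.0539 in the assembloids, Sox18 differed by -4.25 ± 0.31 and Sox7 by -3.61 ± 0.28. The tight junction gene Cldn5 stood at 88.2 and 63.5 in the explants and at 0.25 and 2.1 in the assembloids (-5.30 ± 0.36). The value for Cldn5 was -4.63 without assembloid replicate 1 and -5.97 without replicate 2. Robo4, a guidance receptor of vessels, was at 34.7 and 28.2 in the explants and at 1 step in both assembloid libraries, at least 202-fold lower. Emcn, a sialomucin of capillary and venous endothelium, kept the most signal of the list, with 38.5 and 33.3 in the explants against 13.7 and 14.6 in the assembloids (-1.29 ± 0.17). Apln, the ligand apelin made by sprouting vessels, fell with these genes, from 58.6 and 38.5 to 1.65 and 1.78 (-4.18 ± 0.28).

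Promoters of 8 of the 16 endothelial genes were in the RefSeq table used here (GRCm38.p6). The 250 bases before the start held AGGAAG on either strand, the core bound by ETS factors, in 5 of them, and in 29.5% of 32851 promoters of all genes. The 8-base CCGGAAGT was in 0 of the 8 and in 2.88% of all promoters. Of 10 motifs searched, these letters and the AP-1 letters given further on were chosen for print after the matches had been seen. Tie1 and Robo4, the former a receptor kinase of endothelium, are shown because both are among the 10 genes with the largest fall and their promoters hold a match, though Robo4 is not on the list. The bases are chr4:118489850-118490099 (minus strand) for Tie1 and chr9:37401722-37401971 (plus strand) for Robo4, with AGGAAG or its complement CTTCCT in capitals, a letter match and no measured binding.
Tie1: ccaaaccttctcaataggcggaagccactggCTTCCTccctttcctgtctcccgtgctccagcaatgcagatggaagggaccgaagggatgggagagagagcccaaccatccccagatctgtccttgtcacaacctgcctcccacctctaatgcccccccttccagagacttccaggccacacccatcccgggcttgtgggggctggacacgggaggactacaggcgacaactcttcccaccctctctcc
Robo4: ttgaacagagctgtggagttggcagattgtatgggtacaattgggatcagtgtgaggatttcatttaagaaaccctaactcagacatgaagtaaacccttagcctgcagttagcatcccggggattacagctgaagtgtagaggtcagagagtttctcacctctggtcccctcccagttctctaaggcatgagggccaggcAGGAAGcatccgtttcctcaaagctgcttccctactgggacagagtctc

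Most macrophage genes were at or near the lowest value in the assembloids. Of 13 genes of the macrophage and leukocyte list 12 were lower and 0 higher, against 5.42% and 2.25% of all genes. Of the 13, 9 were at 1 step in both assembloid libraries. The median was -2.32 with the pseudocount, which shortens the differences of such genes, and -4.65 with them at their lower bounds. The summed signal was 66 to 128 in the explants and 8.03 to 10.3 in the assembloids, most of it from Ptprc. Csf1r, the receptor that macrophages need for survival, was at 8.66 and 7.77 in the explants and at 1 step in the assembloids, at least 52.7-fold lower. Mrc1, the mannose receptor, was at 9.27 and 5.7 in the explants and at 1 step in the assembloids, at least 48.1-fold lower. C1qa, C1qb and C1qc, the chains of complement C1q, were at 4.33 to 8.08 in the explants and at 1 step in the assembloids. Lyz2, the lysozyme of myeloid cells, differed by -4.65 ± 0.34, but explant replicate 1 had 54.5 and replicate 2 had 15.9. Without explant replicate 1 Lyz2 stood at -3.79, and without replicate 2 at -5.51. Gpnmb, a lysosomal glycoprotein of phagocytes, behaved alike, at 87.7 and 24.1 in the explants and 0.6 and 0.97 in the assembloids (-4.76 ± 0.40, -3.85 without explant replicate 1 and -5.67 without replicate 2). Cd68 was lower but well above 1 step, at 10.2 and 5.95 in the explants and 3.15 and 1.51 in the assembloids (-1.46 ± 0.25). Cd74 was at 4.94 and 2.02 against 0.699 and 0.593 (-1.38 ± 0.27). Ptprc, the pan-leukocyte phosphatase CD45, was the only gene of the list that did not pass. It was at 6.53 and 3.98 in the explants and 5.9 and 5.01 in the assembloids (0.07 ± 0.22, adjusted p = 0.882). The receptor Stab1, which macrophages and sinusoidal endothelium share, was at 73.2 and 51 against 0.649 and 0.269 (-5.46 ± 0.19).

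Signs of blood and nerve were low in both cultures. Hba-a1, an adult alpha globin, was at 7.03 and 12.4 in the explants and at 1 step in the assembloids, at least 62.4-fold lower, against 1210 and 1320 in E12.5 kidneys. Hbb-y, an embryonic beta globin, was at 4.59 and 9.29 in the explants and at 1 step in the assembloids, at least 44.5-fold lower. In all, 4 of 9 erythroid genes were lower, and since globin genes are near-identical copies the split of signal among them is uncertain. Of 10 neuron and glia genes 1 was lower, where 5.42% of all genes were lower. It was Stmn2, a microtubule regulator of neurons, at 12.3 ± 4.57 (SD, n = 2) in the explants against 0.89 ± 0.649 (SD, n = 2) in the assembloids. The call on Stmn2 was lost without assembloid replicate 2 and without explant replicate 2 (-2.48 in each).

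**Figure D2:**
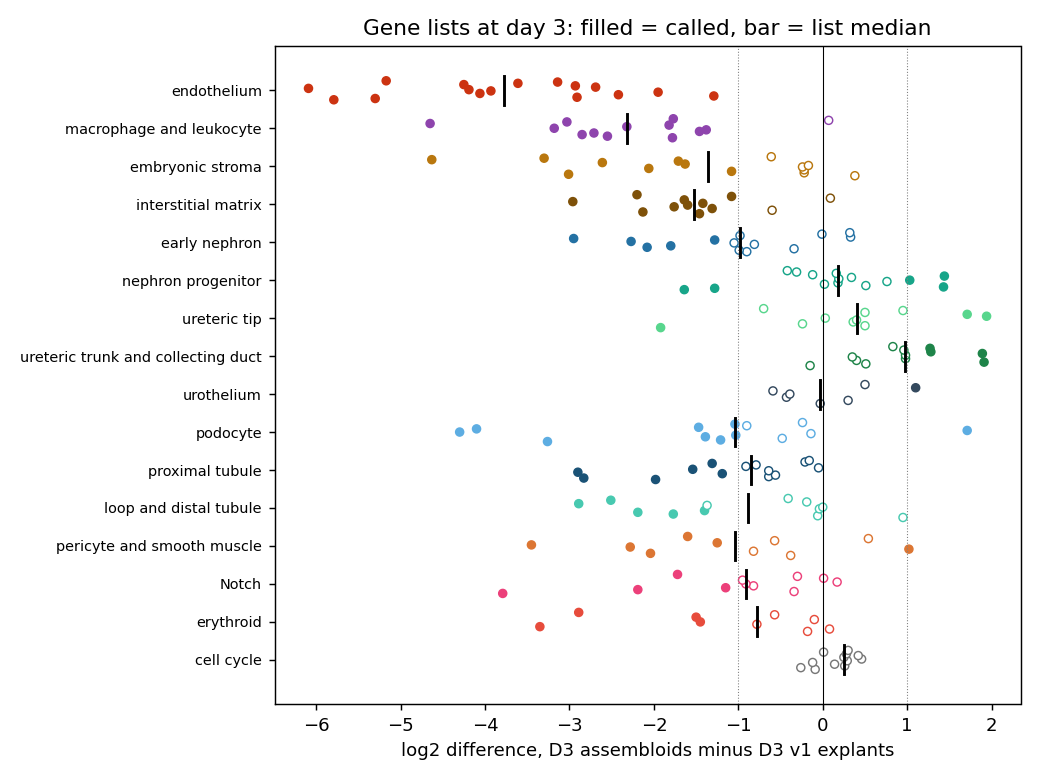
Log2 difference of each gene at D3 (x) in 16 gene lists (rows), where filled points are called genes, black bars are list medians and dotted lines mark a log2 difference of 1 in size. The medians of the endothelium and macrophage lists, -3.77 and -2.32, lie farthest to the left, the latter shortened by the pseudocount, and that of the collecting duct list, 0.97, is the farthest to the right.

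Stromal signal was lower in part. In the embryonic stroma list 8 of 14 genes were lower and 0 higher, with a median of -1.35, where 5.42% of all genes were lower. Foxd1, the transcription factor that marks stromal progenitors, was at 148 and 153 in the explants and at 45 and 27.7 in the assembloids (-2.06 ± 0.26, adjusted p = 3.10e-06), against 326 and 304 in E12.5 kidneys. Tbx18, a factor of ureteric mesenchyme, was at 42.5 and 65.9 against 4.5 and 4.51 (-3.30 ± 0.34). Penk, an opioid precursor made by stroma, was at 106 and 114 against 3 and 4.04 (-4.63 ± 0.23). Ntn1, a netrin of the stroma, was at 113 and 140 against 23 and 17.1 (-2.61 ± 0.16). Pdgfra, Nr2f1, Alx1 and Dlk1 were the other lower genes, from -3.01 for Alx1 to -1.08 for Dlk1. Dlk1 was not called without explant replicate 2 (-0.78) or without either assembloid library (-1.12 without replicate 1 and -1.03 without replicate 2). Among the 6 that did not pass, Meis1, a homeobox factor of stroma, was at 131 and 145 in the explants and 135 and 101 in the assembloids (-0.24 ± 0.14), and Aldh1a2, which makes retinoic acid, was at 120 and 130 against 161 and 164 (0.38 ± 0.11).

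Matrix genes of the interstitium were lower in 10 of 12 cases (median -1.53), and in 0 cases higher, where 5.42% of all genes were lower. Col1a2, a chain of type I collagen, was at 978 and 910 in the explants and 212 and 217 in the assembloids (-2.13 ± 0.15, adjusted p = 3.79e-11). Decorin, the proteoglycan encoded by Dcn, was at 163 and 231 against 25.8 and 22.5 (-2.96 ± 0.24). Fn1, fibronectin, was at 578 and 587 against 563 and 687 (0.09 ± 0.20) and did not pass. Contractile genes were lower in part. Myh11, the smooth muscle myosin heavy chain, was at 21.3 and 21.1 in the explants and 0.999 and 1.13 in the assembloids (-3.45 ± 0.30), whereas Acta2, smooth muscle actin, was at 19.5 and 19.9 against 13.1 and 17 (-0.38 ± 0.23). Of 10 pericyte and smooth muscle genes 5 were lower and 1 higher. The higher one, the intermediate filament gene Des, was at 51.9 and 65.9 against 149 and 96.2 (1.02 ± 0.22) and was no longer called without assembloid replicate 1 (0.71) or explant replicate 1 (0.85).

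Other stromal products were lower in the assembloids too. Igf1, the growth factor, was at 58.8 and 81.8 in the explants and 2.6 and 5.12 in the assembloids (-3.92 ± 0.27), and was chosen after its values had been seen. The Wnt modulators Sfrp1, Sfrp2 and Dkk2 made up the 3 lower genes of 13 in the Wnt list, of which 0 were higher. Sfrp1, a secreted Wnt binder, was at 261 and 324 against 94.7 and 109 (-1.51 ± 0.14), and Dkk2, a secreted Wnt antagonist, was at 8.73 and 12.3 against 1.75 and 1.99 (-2.0 ± 0.18). Sfrp2 was at 174 and 191 against 75.2 and 93.9 (-1.10 ± 0.20) and was not called without assembloid replicate 1 (-0.95). In the basement membrane list Lama4 (-1.53 ± 0.13) and Nid2 (-1.47 ± 0.13) were lower, whereas Lama5, the laminin chain of kidney epithelia, was higher, at 334 and 356 against 163 and 154 (1.12 ± 0.13).

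**Figure D3:**
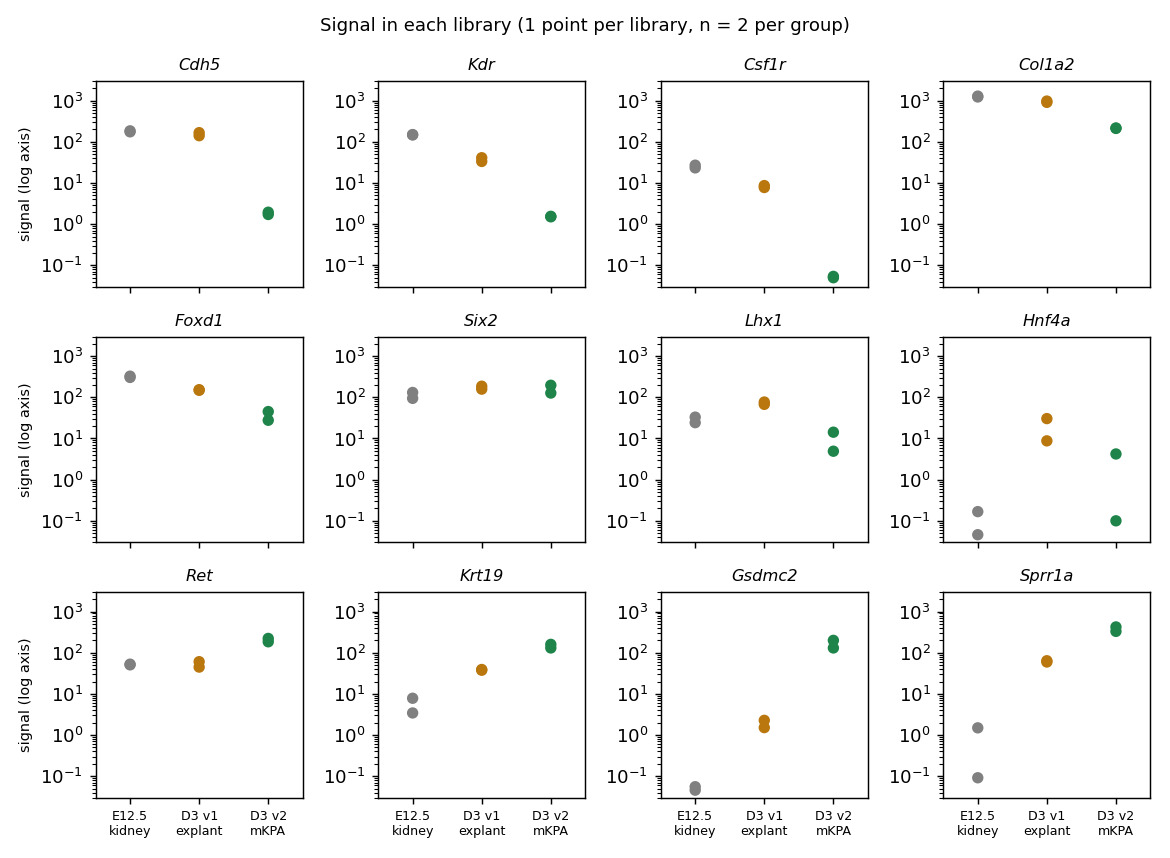
Signal of 12 genes in each library (y, log axis) for E12.5 kidneys, D3 v1 explants and D3 v2 assembloids, 1 point per library. Cdh5 in the assembloids lies at 1.95 and 1.72 against 167 and 141 in the explants, Six2 overlaps between the cultures, and Gsdmc2 is at 131 and 200 in the assembloids and at 1 step in both E12.5 kidneys.

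Nephron progenitor genes, in contrast, were near the level of the explants. Six2, the factor that keeps progenitors self-renewing, was at 158 and 186 in the explants and at 196 and 127 in the assembloids (-0.12 ± 0.25, adjusted p = 0.806), with overlapping groups. Gdnf was at 35.4 and 33.2 against 47.5 and 50.9 (0.51 ± 0.24), and Sall1, a zinc finger factor of progenitors, was at 329 and 357 against 486 and 389 (0.34 ± 0.13). Of 15 tested genes 3 were higher, 2 lower and 10 did not pass, with a median of 0.18. Eya1, a transcriptional partner of Six2, was at 70.4 and 93.7 in the explants and 259 and 187 in the assembloids (1.43 ± 0.24). Osr1, an early factor of kidney mesenchyme, was at 21.8 and 29.6 against 72.6 and 38.4 (1.03 ± 0.25), but it was not called without explant replicate 1 (0.82) or assembloid replicate 1 (0.58). Without explant replicate 1 the count of higher progenitor genes was 1. Cited1, which marks the least committed progenitors, was lower, at 13.9 and 18.4 against 5.9 and 3.34 (-1.64 ± 0.34), and so was Crym, at 24.2 and 30.3 against 13.1 and 8.46 (-1.28 ± 0.24), though Crym was not called without assembloid replicate 2 (-0.99).

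Early nephron genes were lower or did not pass. Of 14 genes 5 were lower, 0 higher and 9 did not pass, with a median of -0.99. Lhx1, the homeobox factor of the renal vesicle (ENSMUSG00000018698.16, chromosome 11, 84409110 to 84416362 on mm39), was at 76.7 and 67.4 in the explants and at 4.9 and 14.2 in the assembloids (-2.95 ± 0.43, adjusted p = 4.14e-05), below the 24.2 and 33 of E12.5 kidneys as well. The Notch ligand Dll1 was at 37.4 and 23.8 against 4.6 and 13.1 (-1.80 ± 0.34), the Notch ligand Jag1 at 123 and 95.1 against 35.8 and 54.5 (-1.28 ± 0.18), and the Wnt antagonist Dkk1 at 11.1 and 7.67 against 1.05 and 1.94 (-2.08 ± 0.26). Wnt4, which acts before Lhx1, was at 172 and 150 in the explants and 165 and 242 in the assembloids (0.32 ± 0.20), and did not pass. Pax8, induced early in the nephron, was at 126 and 119 against 52.5 and 72.1 (-0.98 ± 0.11), just short of the fold threshold. The assembloid libraries differed among themselves in these genes. Without assembloid replicate 1 the value was -2.26 for Lhx1, -1.13 for Dll1 and -0.98 for Jag1, which was then not called. Without replicate 2 it was -3.64 for Lhx1 and -2.47 for Dll1, and 9 of the 14 genes were lower.

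The Notch list followed. Of 11 genes 4 were lower (Hey1, Hey2, Nrarp and Dll4) and 0 higher, with a median of -0.91, and 7 were lower without assembloid replicate 2. Hey2 (-1.15) was not called with quantile scaling (-0.92) or 4 times the pseudocount (-0.70). Hey1, a direct Notch target, was at 66.8 and 61.4 in the explants and 12.3 and 14.4 in the assembloids (-2.19 ± 0.15). Dll4, a Notch ligand of vessels, was at 22.4 and 22.6 against 0.899 and 0.593 (-3.79 ± 0.35). Endothelium also makes several of these genes and its 16 markers were lower in the same libraries, and its part in the Notch values was not tested. Nrarp, a Notch feedback gene, was at 36.3 and 26.2 against 5.15 and 14.3, at -1.72 ± 0.35 with all libraries, -1.06 without assembloid replicate 1 and -2.38 without replicate 2. The receptor Notch2 was at 246 and 260 in the explants and 253 and 255 in the assembloids (0.01 ± 0.14).

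Genes of later nephron segments were lower to differing degrees. Of 13 podocyte genes 8 were lower and 1 higher, against 5.42% and 2.25% of all genes. Podxl, the sialomucin of podocyte foot processes, also made by endothelium, was at 212 and 91.5 in the explants and at 8.94 and 5.82 in the assembloids (-4.10 ± 0.32). Without explant replicate 1 the value for Podxl was -3.50 and without replicate 2 it was -4.70, and the count of lower podocyte genes was 4 without replicate 1 and 10 without replicate 2. Nephrin (Nphs1) was at 42.4 and 38.2 against 39.2 and 33.6 (-0.14 ± 0.23), and Wt1, a factor of progenitors and podocytes, was at 248 and 244 against 216 and 201 (-0.24 ± 0.11). The phospholipase Plce1 was the higher gene, at 13.7 and 14.4 against 44.4 and 51.9 (1.71 ± 0.16).

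In the proximal tubule list 6 of 14 genes were lower and 0 higher. Hnf4a, the factor that directs proximal differentiation, was at 30.4 and 8.75 in the explants and at 0.0999 and 4.2 in the assembloids, a spread within each group that was large. It stood at -2.90 ± 0.51 (adjusted p = 0.000359), between -1.76 without assembloid replicate 1 and -4.04 without assembloid replicate 2, with -2.05 without explant replicate 1 and -3.74 without explant replicate 2, and it was not called when the 4 libraries were fitted alone. The water channel Aqp1, made by proximal tubule and by vessels, was at 11.2 and 16 against 0.799 and 1.35 (-2.83 ± 0.22). In the loop and distal list 5 of 12 were lower. The salt cotransporter Slc12a1 was at 14.7 and 3.24 in the explants and 0.05 and 0.216 in the assembloids (-2.89 ± 0.48, -1.95 without explant replicate 1 and -3.84 without replicate 2), and Tfap2b, a factor of distal nephron, was at 33.1 and 28.4 against 3.8 and 5.5 (-2.51 ± 0.23). Without explant replicate 1 the proximal count was 3 and the loop and distal count 4. Without assembloid replicate 1 the proximal count was 4.

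Most ureteric tip genes did not pass, while 2 were higher in the assembloids and 1 was lower. Ret, the Gdnf receptor of ureteric tips, was at 44.9 and 60.7 in the explants and at 223 and 185 in the assembloids (1.94 ± 0.22, adjusted p = 1.73e-07), above the 50.9 and 52.8 of E12.5 kidneys. Of 11 tip genes Ret and the transporter gene Slco4c1 (1.71 ± 0.22) were higher, 1 was lower and 8 did not pass. The lower one, the protease gene Adamts18, was at 18.3 and 28.7 against 6.4 and 4.47 (-1.92 ± 0.31). Wnt11, a Wnt made at tips, was at 18.8 and 19.4 against 11.8 and 11 (-0.70 ± 0.22), and Gfra1, the co-receptor of Ret, at 152 and 184 against 195 and 150 (0.03 ± 0.14).

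Genes of the ureteric trunk and collecting duct were shifted upward as a list. Of 12 genes 4 were higher and 0 lower, with a median of 0.97. Krt19, a keratin of simple epithelia, was at 39.2 and 37.7 in the explants and at 131 and 160 in the assembloids (1.89 ± 0.30, adjusted p = 9.44e-05). Elf5, a factor of ureteric stalk, was at 11.3 and 10.8 against 34.8 and 55.6 (1.91 ± 0.23), and Wnt7b, the collecting duct signal for medulla formation, at 31 and 34.7 against 65.8 and 98.1 (1.27 ± 0.18). Without assembloid replicate 2 Wnt7b was at 0.98 and not called. Gata3 (0.98 ± 0.21), Krt8 (0.96 ± 0.14) and Krt18 (0.98 ± 0.14) lay just under the fold threshold, and 8 of the 12 genes were higher without assembloid replicate 1. The water channel Aqp2 was at 0.249 and 1.13 in the explants and 0.0999 and 0.97 in the assembloids (-0.15 ± 0.27).

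The strongest rises in the assembloids were in genes of lining and barrier epithelia. Gsdmc2, a gasdermin (ENSMUSG00000056293.13, chromosome 15, 63696195 to 63717027 on mm39), was at 2.28 and 1.52 in the explants and at 131 and 200 in the assembloids, 86.9-fold higher by the means (5.84 ± 0.30, adjusted p = 2.06e-13). Gsdmc3 was at 0.913 and 1.43 against 105 and 154 (5.92 ± 0.49). Gsdmc2, Gsdmc3 and Gsdmc4 are near-identical neighbours, so how the signal is shared among them is uncertain. Sprr1a, a cornified envelope protein induced in stressed epithelia, was at 59.7 and 64 against 331 and 424 (2.58 ± 0.37), and Sprr2f at 0.997 and 0.688 against 25.2 and 27.6 (3.93 ± 0.26), again in a family of close copies. Krt4, a keratin of stratified epithelia chosen after its values had been seen, was at 0.249 and 0.492 against 10.1 and 16 (3.37 ± 0.27). Lcn2, a siderophore binder released by injured tubules and collecting ducts, was at 0.898 and 1.18 against 49.9 and 18.7 (3.99 ± 0.37), with 3.30 without assembloid replicate 1 and 4.67 without replicate 2. Clu, clusterin, also chosen after its values had been seen, was at 66.9 and 58.2 against 493 and 417 (2.84 ± 0.16). Urothelial genes proper did not move with these as a list. Only Upk3a of 7 was called, at 8.13 and 10.6 against 17.1 and 25.8 (1.10 ± 0.36), and it was called in only 1 of the 4 fits without 1 of these libraries, that without assembloid replicate 1. It was at 0.93 without explant replicate 1, 1.27 without explant replicate 2 and 0.82 without assembloid replicate 2.

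Of the 11 barrier and epithelial genes Gsdmc2, Gsdmc3, Gsdmc4, Sprr1a, Sprr2f, Sprr2g, Krt4, Lcn2, Tspan1, Gabrp and Ppp1r1b, 6 had a promoter in the table. The AP-1 letters TGANTCA (palindromic but for N, so the same on both strands) were in the 250 bases before the start of 2 of them, Sprr1a and Sprr2f, and in 6.75% of all promoters. Those 2 are shown because they are the Sprr genes the naming rule selected. The bases are chr3:92485882-92486131 (minus strand) for Sprr1a, with 2 matches, and chr3:92364937-92365186 (plus strand) for Sprr2f, with 1 match, on GRCm38.p6 from RefSeq with matches in capitals.
Sprr1a: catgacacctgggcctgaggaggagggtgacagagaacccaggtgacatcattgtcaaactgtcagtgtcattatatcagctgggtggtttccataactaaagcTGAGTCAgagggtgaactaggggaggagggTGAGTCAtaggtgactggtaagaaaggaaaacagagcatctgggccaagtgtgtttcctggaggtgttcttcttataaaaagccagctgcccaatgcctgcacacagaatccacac
Sprr2f: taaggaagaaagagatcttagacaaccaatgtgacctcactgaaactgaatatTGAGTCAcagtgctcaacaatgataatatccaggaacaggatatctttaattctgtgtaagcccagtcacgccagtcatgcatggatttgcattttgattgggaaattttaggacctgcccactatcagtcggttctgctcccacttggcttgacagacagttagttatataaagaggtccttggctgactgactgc

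The remaining genes with the largest differences were of several kinds. Alx1, a homeobox factor of mesenchyme and a member of the stroma list, was at 14.3 and 13.5 in the explants and 0.55 and 1.29 in the assembloids (-3.01 ± 0.23). Ppp1r1b, a phosphatase inhibitor, was at 1.25 and 1.23 against 26.4 and 30 (3.72 ± 0.31), Tspan1, a tetraspanin of epithelia, at 1.84 and 0.836 against 25.4 and 27.8 (3.62 ± 0.22), and Gabrp, a GABA receptor subunit found in epithelia, at 1.15 and 0.344 against 19.1 and 18.2 (3.56 ± 0.33). Tnfsf10, the death ligand TRAIL, chosen after its values had been seen, was at 1.55 and 0.934 against 16.8 and 24.9 (3.30 ± 0.21). Cntnap5b, a contactin-associated neural adhesion gene, was at 39.5 and 38.4 in the explants and at 1 step in the assembloids, at least 250-fold lower. The unnamed transcript AI506816 was at 6.95 and 8.02 against 84.5 and 87.7 (3.37 ± 0.29), with a gap of 3.72 at D7 and 4.12 at D13. Among kidneys it was at 7.3 and 6.57 at E12.5 but at 115 and 112 at E15.5. Kpna2, an importin, was at 1.31 and 1.18 against 30.6 and 28.7 (3.80 ± 0.70), and Rpl34, a ribosomal protein gene chosen after its values had been seen, at 8.58 and 9.44 against 51.3 and 53.9 (2.43 ± 0.19). Kpna2 and Rpl34 have processed copies elsewhere in the genome that could share their reads, so these values are uncertain. Rpl34 too was low in E12.5 kidneys (8.64 and 6.63) and high in E15.5 kidneys (64.7 and 65.2). Whether the values of AI506816 and Rpl34 go with the culture or with sets of libraries was not tested.

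Over all lists, which were chosen with earlier results known, 125 of 386 tested genes were called, against 7.68% of all genes. Most genes of the position and signalling lists did not pass. Retinoic acid genes split, with 2 of 12 higher and 2 lower. Aldh1a3, which makes retinoic acid in ureteric epithelium, was at 91 and 91.1 in the explants and 266 and 404 in the assembloids (1.84 ± 0.24), and Crabp2, which carries it to the nucleus, was higher too (1.35 ± 0.29). Lrat, which stores retinol as ester, was at 40.8 and 74.4 against 3.4 and 4.42 (-3.53 ± 0.25), and Cyp26a1, which degrades retinoic acid, was lower (-1.60 ± 0.29). Hox genes of paralogue groups 9 to 11, which set the kidney's position along the body, did not pass in 8 of 10 cases. The 2 that did were Hoxb9, at 88.1 and 96.5 against 268 and 298 (1.61 ± 0.12), and Hoxc11, at 7.23 and 6.93 against 0.5 and 0.916 (-2.28 ± 0.29). Hoxa4 was at 17.5 and 15.3 against 2.79 and 3.99 (-2.01 ± 0.23).

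Of all genes 2.25% were higher and 5.42% lower at D3. Among 12 FGF genes Fgf10, a mesenchymal growth factor for epithelial budding, was higher (1.10 ± 0.29) and Fgf2 was lower (-1.03 ± 0.17). Both calls were lost without assembloid replicate 1 (1.01 and -0.94), and they were also lost without explant replicate 1 for Fgf10 (0.93) and explant replicate 2 for Fgf2 (-0.88). The amino acid stress list had 3 of 11 genes lower and 0 higher, and 1 lower without explant replicate 1. Slc7a11, the cystine transporter, was at 45.3 and 39.8 in the explants and 12.8 and 12.4 in the assembloids (-1.68 ± 0.20). Cell cycle genes gave 0 calls of 12 with limma, 4 at an unadjusted p under 0.05, with a median of 0.25. Over all 19264 genes, 6078 were at an unadjusted p under 0.05 with limma, so counts of this kind are common. Mki67, the Ki-67 proliferation antigen, was at 392 and 428 against 559 and 541 (0.42 ± 0.13) and Cdk1, the mitotic kinase, at 90.9 and 93.5 against 78.2 and 91.2 (-0.12 ± 0.10). Sterol synthesis, oxidative phosphorylation and cell adhesion lists had 0 calls each with limma as well, of 12, 10 and 12 genes tested, and 2, 1 and 9 genes at an unadjusted p under 0.05. Within the last, E-cadherin (Cdh1) was at 176 and 157 against 279 and 352 (0.91 ± 0.11), under the fold threshold, and was called without assembloid replicate 1 (1.08).

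The same gap at D7 and D13 of culture shows how long the D3 differences lasted. At D7, 1147 genes were called (5.95%), 341 higher in the assembloids (1.77%) and 806 lower (4.18%), and 569 of them had been called in the same direction at D3, which is 38.5% of the D3 calls and 49.6% of the D7 calls. At D13, 1465 were called (7.6%), 306 higher (1.59%) and 1159 lower (6.02%), and 408 shared direction with D3, 27.6% of the D3 calls and 27.8% of the D13 calls, while 78 had turned around. A test of the D3 gap against the mean of the D7 and D13 gaps called 1203 genes (6.24%), 642 with a gap more positive at D3 (3.33%) and 561 more negative (2.91%).

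Endothelial gaps were smaller at the later days. In 15 of the 16 the D3 gap was called more negative than the mean of the later gaps, against 2.91% of all genes. Cdh5 went from 167 and 141 in D3 explants to 15.1 and 21.5 at D7 and 28.8 and 23.9 at D13, and in assembloids from 1.95 and 1.72 to 4.11 and 4.31 and then 8.61 and 11.4 (difference of gaps -4.19 ± 0.37). Both cultures thus held far less Cdh5 signal at D13 than the 175 and 185 of E12.5 kidneys. Macrophage gaps could not be followed in the same way, since most of these genes were at 1 step in the D3 assembloids and their gaps are lower bounds. Csf1r in explants was at 8.66 and 7.77 at D3, 13.2 and 15.4 at D7 and 43.3 and 45.8 at D13, and in assembloids it reached 1.31 and 0.934 by D13.

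Matrix genes were lower at D3 and nearly level later. The interstitial matrix median was -1.53 at D3, -0.27 at D7 and -0.14 at D13, and Dcn in the assembloids was at 25.8 and 22.5 at D3 and at 388 and 335 at D7, level with the explants' 356 and 314 (difference of gaps -3.03 ± 0.29). Some early nephron genes changed sides at D7. Lhx1 in the explants was at 76.7 and 67.4 at D3 and at 9.55 and 7.13 at D7, while in the assembloids it was at 4.9 and 14.2 at D3 and at 29.7 and 42.5 at D7 (log2 difference at D7 1.98, at D13 -0.36, difference of gaps -3.76 ± 0.53). The value for Lhx1 was -3.07 without D3 assembloid replicate 1 and -4.45 without replicate 2. At D7 5 of the 14 early nephron genes were higher in the assembloids and 0 lower, and at D13 1 was higher and 3 lower, with medians of 0.68 and -0.37. Among all genes 1.77% were higher and 4.18% lower at D7, and 1.59% and 6.02% at D13. Of the 5 that were lower at D3, Dll1, Jag1 and Lhx1 were higher at D7, and Dkk1 and Irx1 were not called then. The D3 value of Irx1 was -2.27 with all libraries, -1.25 without assembloid replicate 1 and -3.28 without replicate 2, and it was not called when the 4 libraries were fitted alone.

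**Figure D4:**
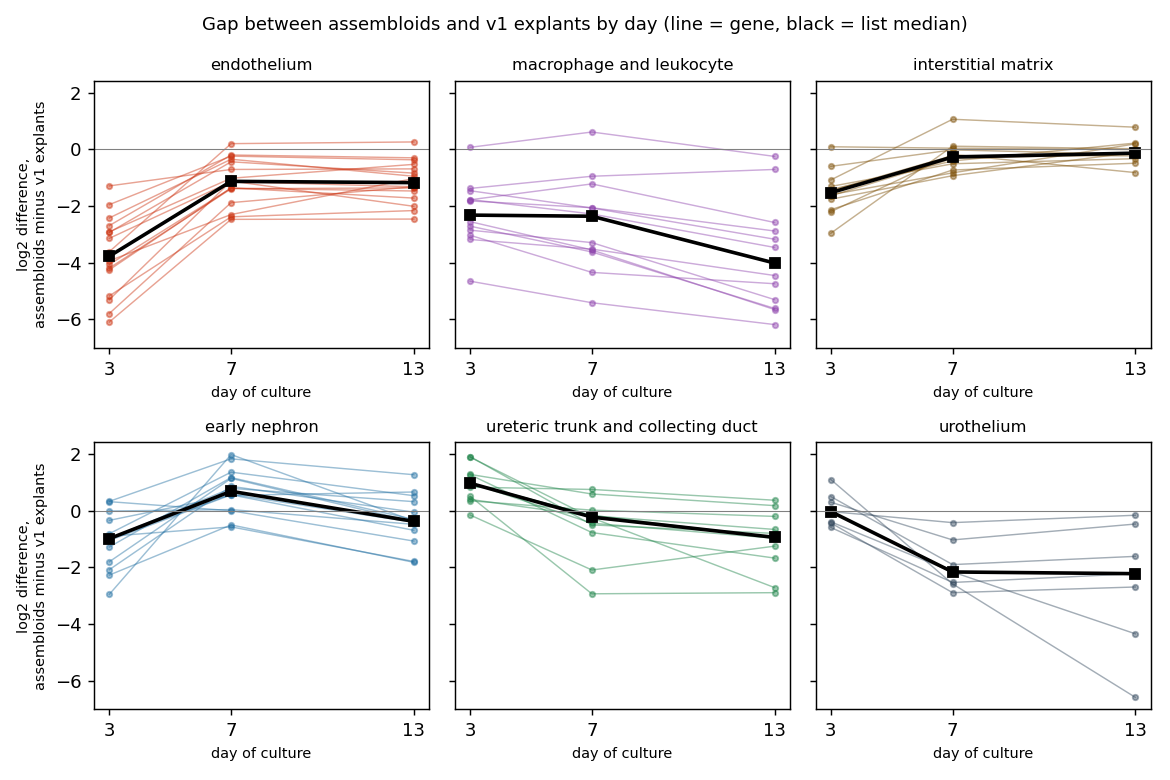
Log2 difference between assembloids and v1 explants (y) at 3, 7 and 13 days of culture (x) for 6 gene lists, with 1 line per gene and the list median in black. The endothelial median is -3.77 at D3 and closer to 0 later, the macrophage lines are shortened by the pseudocount where the assembloids are at 1 step, and the urothelial median goes from -0.03 to -2.22.

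Several epithelial differences of D3 were smaller or reversed later. The tip genes Ret and Slco4c1 were not called in the difference of gaps (0.70 ± 0.26 and 0.11 ± 0.27). Slco4c1 was at 1.71 at D3, 1.78 at D7 and 1.41 at D13, and Ret at 1.94, 1.66 and 0.81. Gsdmc2 in the assembloids was at 131 and 200 at D3, 25.6 and 37.4 at D7 and 2.51 and 3.48 at D13, while in the explants it was at 2.28 and 1.52, then 13.4 and 7.44, then 27.1 and 52.2 (difference of gaps 6.72 ± 0.37). Krt19 went from 131 and 160 at D3 to 19.5 and 36.5 at D13 in the assembloids and from 39.2 and 37.7 to 173 and 188 in the explants (3.37 ± 0.37). Upk3a, a uroplakin of the urothelial plaque, was near 1 step in D13 assembloids (0.0535 and 0.177) and at 116 and 89.4 in D13 explants (5.68 ± 0.44). In the collecting duct list 8 of 12 genes, and in the urothelium list 6 of 7, had a more positive gap at D3 than later, against 3.33% of all genes.

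**Figure D5:**
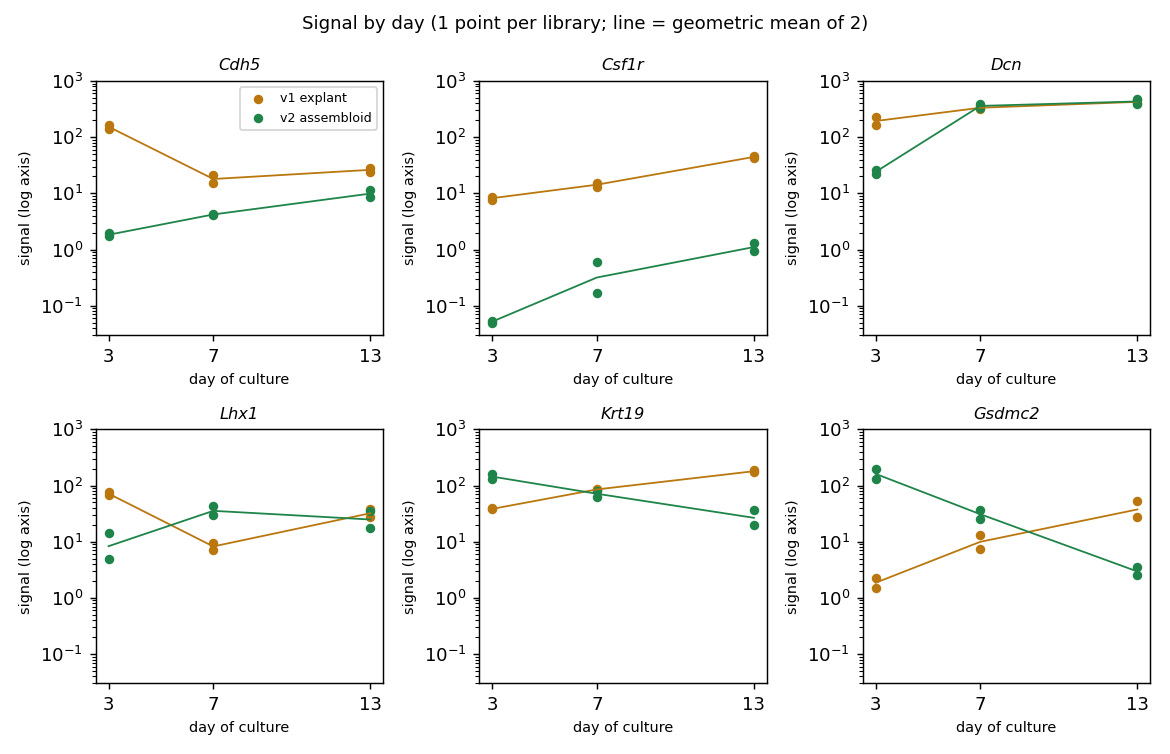
Signal of 6 genes (y, log axis) at 3, 7 and 13 days (x) in v1 explants and v2 assembloids, 1 point per library and lines through geometric means. In the explants Cdh5 is at 15.1 and 21.5 at D7 and Csf1r at 43.3 and 45.8 at D13, and Krt19 and Gsdmc2 cross over between D3 and D13.

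The medium could be compared on its own only in explants at D19, a different day. There 548 genes were called between v2 and v1 (2.84%), 218 higher in v2 (1.13%) and 330 lower (1.71%). Of these, 118 were also called in the same direction at D3 between assembloids and explants, 22 higher and 96 lower, which is 7.98% of the D3 calls and 21.5% of the D19 calls. Another 41 were called at both in opposite directions. No D3 library pairs the same culture type in both media, so how much of the D3 gap goes with the medium could not be measured.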

How the data were processed

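Bulk RNA-seq of total RNA was made in 34 mouse samples, of which 4 are compared here and 14 serve as references. E15.5 kidneys were read only for AI506816 and Rpl34. The authors deposited 1 TMM-normalized signal value for each gene and sample, as the table is named; its scaling and offset are not stated in the labels. Per the submitters' processing notes, STAR 2.7.8a and Partek were used, and both mm10 and mm39 are listed. Only 412 of 18892 nuclear genes start where an mm10 annotation puts them, so coordinates of the table are given as mm39. The deposited signal was not read as counts: of low values, up to 20 steps, 89.7 to 91.4% in the D3 libraries were whole multiples of the lowest value within 0.1 step. Of the per-sample columns, 0 belong to no sample.

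The test used log2(signal + 0.962), 1 ppm of the median column total, in genes with at least that value in 2 samples (19264 of 23331). limma 3.58.1 in R 4.3.3 fitted 17 group means to all 34 samples with trend and robust moderation (17 residual degrees of freedom, median prior 9.93), so the spread is pooled over groups. Calls needed a Benjamini-Hochberg p under 0.05 and a log2 difference of at least 1 in size. A permutation test of 2 against 2 samples cannot go below 0.333. The difference between days used the D3 gap minus the mean of the D7 and D13 gaps in the same fit. Replicates of a group were compared before averaging and no pair lay within sampling noise. The model was tested on simulated data.

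Named genes are the 10 with the largest difference in each direction (6 for the difference of gaps) among calls that have an assigned symbol and whose higher group averages 10 times the pseudocount or more, plus members of 35 lists. A few of the genes so chosen are not reported here. Other genes were picked with their values known, and the text says so. The comparison, the lists and their members were chosen with earlier results of these data known. Floors cover counting error only. Promoter bases were taken from RefSeq (GRCm38.p6). Alternatives were other pseudocounts, filters, scalings, fits, a replicate block and leaving out each library.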

Additional observations from a re-analysis of the deposited data

Results flagged for a closer look

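The gap between assembloids and v1 explants at D3 differed from the mean of the gaps at D7 and D13 in 1203 genes, by the test of that difference in limma. The values below are the log2 difference of the gaps for the genes named here, negative where the D3 gap was lower than later.

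Among vessel genes the values were -4.41 for Apln, -4.19 for Cdh5, -3.84 for Sox7, -3.78 for Robo4, -3.73 for Cldn5 and -3.63 for Pecam1. They were -2.90 for Tie1, -2.71 for Sox18, -2.31 for Dll4, -2.29 for Sox17, -2.27 for Kdr and -1.10 for Cd93. The later gaps of Sox17 are shortened by the pseudocount, with D7 explants at 0.331 and 0.687. The Cldn5 value was -3.06 without D3 assembloid replicate 1 and -4.40 without replicate 2. Cd93 lost its call in 9 of 12 fits that left out 1 library (-1.14 to -1.01), each of the 4 D3 libraries among them. The globins Hba-a1 (-3.24) and Hbb-y (-2.80) had explant signal at D3 that was near the lowest value later, in cultures where the assembloids were at 1 step on every day, so the later gaps could not be measured. Of the macrophage genes C1qa was at 2.05, C1qc at 1.90, Mrc1 at 1.51 and C1qb at 1.45. The C1q genes were at 1 step in every assembloid library at D3, D7 and D13, and Mrc1 at D3, so these gaps are lower bounds and the values follow the explant level and the pseudocount; they do not show that the gap widened.

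In stroma and matrix the values were -3.37 for Igf1, -3.03 for Dcn, -2.81 for Penk, -2.22 for Tbx18, -1.92 for Sfrp2, -1.65 for Dkk2, -1.62 for Lama4, -1.53 for Col1a2, -1.52 for Ntn1, -1.46 for Foxd1 and -1.15 for Pdgfra. The laminin chain Lama5 was at 1.64 and the cystine transporter Slc7a11 at -1.62.

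In progenitors and early nephrons the values were -3.76 for Lhx1, -2.48 for Dkk1, -2.27 for Hey1, -2.18 for Dll1, -1.79 for Cited1, -1.70 for Jag1, -1.60 for Nrarp, -1.54 for Pax8, -1.26 for Crym and -1.12 for Hey2. Without D3 assembloid replicate 1 they were -3.07 for Lhx1, -1.51 for Dll1, -0.94 for Nrarp and -1.09 for Hey2, the last 2 no longer called, and without replicate 2 they were -4.45 for Lhx1, -2.85 for Dll1 and -2.26 for Nrarp. Cited1 (-1.45), Crym (-0.97) and Hey2 (-1.14) were not called without D3 assembloid replicate 2. Nrarp was not called without D3 explant replicate 1 (-1.37), and Hey2 was not called without D3 explant replicate 2 (-1.09) or D13 explant replicate 1 (-0.85).

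In nephron segments the values were -2.57 for Hnf4a, -2.03 for Podxl, -1.76 for Tfap2b and -1.58 for Aqp1. Hnf4a was not called without D3 assembloid replicate 1 (-1.43) or D3 explant replicate 1 (-1.72), and was at -3.71 without D3 assembloid replicate 2 and -3.41 without D3 explant replicate 2. Podxl was at -1.43 without D3 explant replicate 1 and at -2.64 without replicate 2.

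In ureteric and surface epithelium the values were 6.72 for Gsdmc2, 6.67 for Gsdmc3, 5.68 for Upk3a, 5.03 for Sprr2f, 4.89 for Sprr1a, 4.0 for Krt4, 3.55 for Sprr2g, 3.40 for Tspan1, 3.37 for Krt19 and 3.0 for Ppp1r1b. They were 2.83 for Tnfsf10, 2.76 for Gsdmc4, 2.72 for Lcn2, 2.56 for Elf5, 2.49 for Wnt7b, 1.68 for Gata3, 1.65 for Clu, 1.52 for Gabrp, 1.52 for Aqp2, 1.51 for Krt8 and 1.40 for Krt18. Lcn2 was at 2.04 without D3 assembloid replicate 1 and 3.41 without replicate 2, and Gabrp was not called without D3 explant replicate 2 (1.17).

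Retinoic acid and position genes differed as well, with 1.68 for Aldh1a3, 1.06 for Crabp2, -1.33 for Cyp26a1, -2.87 for Lrat, 1.29 for Hoxb9 and -1.42 for Hoxa4. Crabp2 lost its call in 10 of 12 fits that left out 1 library (0.75 to 1.12), each of the 4 D3 libraries among them, and Cyp26a1 in those without D3 explant replicate 2 (-1.04) and D3 assembloid replicate 1 (-1.07).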

How the results depend on the processing

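No called value reversed under the alternatives run, but values near 0 that were not called could change sign, such as Six2 (0.19 without assembloid replicate 2) and Aqp2 (0.28 without assembloid replicate 1). Adding 4 times the pseudocount cut the D3 calls from 1479 to 767 (234 higher, 533 lower), the difference of gaps from 1203 to 683 (362 positive, 321 negative) and the overlap with the D19 medium comparison from 118 to 36, and 0.25 of the pseudocount raised that overlap to 179, since a larger pseudocount shrinks the differences of low genes by construction. With 4 times the pseudocount 7 of the D3 calls on named genes were lost, with quantile scaling 4, and with a fit of the 4 libraries alone 3 and with equal column totals 2. Leaving out 1 library gave 1418 to 1534 D3 calls (379 to 482 higher, 979 to 1113 lower), 1016 to 1276 for the difference (492 to 716 positive, 524 to 576 negative) and 112 to 130 called list genes against 125, with the lone sample assumed to vary like the other groups. The other filters, scalings and fits kept these counts within 1.5 times. The replicate numbers did not pair the D3 samples (correlation of deviations across genes -0.08, and no label pairs them), and with a replicate block within each day 1476 D3 genes (433 higher, 1043 lower) and 1190 differences of gaps (634 and 556) were called. Depth limits what can be said of genes at 1 step, for which only lower bounds are given, and with 2 libraries per group the spread comes mostly from the pooled fit.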
